A study of Mus musculus with 30 samples.

Results

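The 39 Hox genes of mouse, named Hoxa, Hoxb, Hoxc or Hoxd with a number, were located against the initiation zones of DNA replication in embryonic stem cells. They were taken by symbol from the 20558 protein-coding genes that RefSeq places on chromosomes 1 to 19 (GRCm38, the same build as mm10): 11 Hoxa genes, 10 Hoxb genes, 9 Hoxc genes and 9 Hoxd genes. The zones come from OK-seq, which sequences the short Okazaki fragments of the lagging strand and so shows in which direction forks travel. A zone is a stretch where leftward and rightward forks part, listed with a breakpoint bin of 1 kb between a left and a right edge. The single library with a file was made from wild-type E14TG2a cells, an established line of mouse embryonic stem cells kept in 2i/LIF medium and labelled with 10 µM EdU for 2 min. The series holds 30 samples in 18 groups; the other 29, SCAR-seq libraries from wild-type cells and from the MCM2_2A #1 and #2 cells (histone marks, inputs), were not analysed here. With 1 library there was no replicate error, no comparison between groups and no test. The clusters were chosen by their measured place against these zones, so all values below are descriptions. The list held 2844 zones and no read counts, so depth is unknown.

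Hox genes encode homeodomain transcription factors that give cells their position along the body axis and in the limbs. Each of the 4 clusters runs from genes with low numbers, active early and toward the head, to genes with high numbers, active later and toward the tail, and genes with the same number in different clusters are paralogs that arose when an ancestral cluster was duplicated. In embryonic stem cells the clusters are known as large Polycomb domains whose genes are mostly silent. RNA was not measured in the library described here.

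The 4 clusters lay differently against the zones. In Hoxd a zone and its breakpoint fell inside the cluster, while Hoxa, Hoxb and Hoxc held no zone at all. In these 3 clusters the nearest zone was 50.4 kb from the edge of Hoxa, 73.3 kb from that of Hoxb and 140.1 kb from that of Hoxc, so that it faced the low-numbered end of Hoxa and Hoxc and the high-numbered end of Hoxb. Of the 39 Hox genes, 8 had a start or end within 20 kb of a zone, all in Hoxd, against 38.5% of all protein-coding genes (7921 of 20558). The count was also 8 of 39 with a limit of 5 kb (34.2% of all), with gene midpoints (29.9%) and with zones whose arms are both below their maximal length (33.3%), and 9 of 39 with a limit of 50 kb (45.4%). By listed transcription start, which only 22 Hox genes have, it was 8 of 22 (36.4%) against 33.9% of all genes with a listed start. The Hox share was then not below that of all genes, but the 8 were the same Hoxd genes. All 9 Hoxd genes have a listed start, against 9 of 11 Hoxa, 3 of 10 Hoxb and 1 of 9 Hoxc genes. The higher share thus follows from which genes are listed. Of the genes around the 20 kb limit, Hoxd4 and Hoxd3 were inside the zone and Hoxd1 lay just outside the limit at 22.0 kb. The 8 genes shared 1 zone, and genes of a cluster are not independent of each other. The median Hox gene was 137.1 kb from a zone, where the median protein-coding gene was 71.2 kb away.

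**Figure D1:**
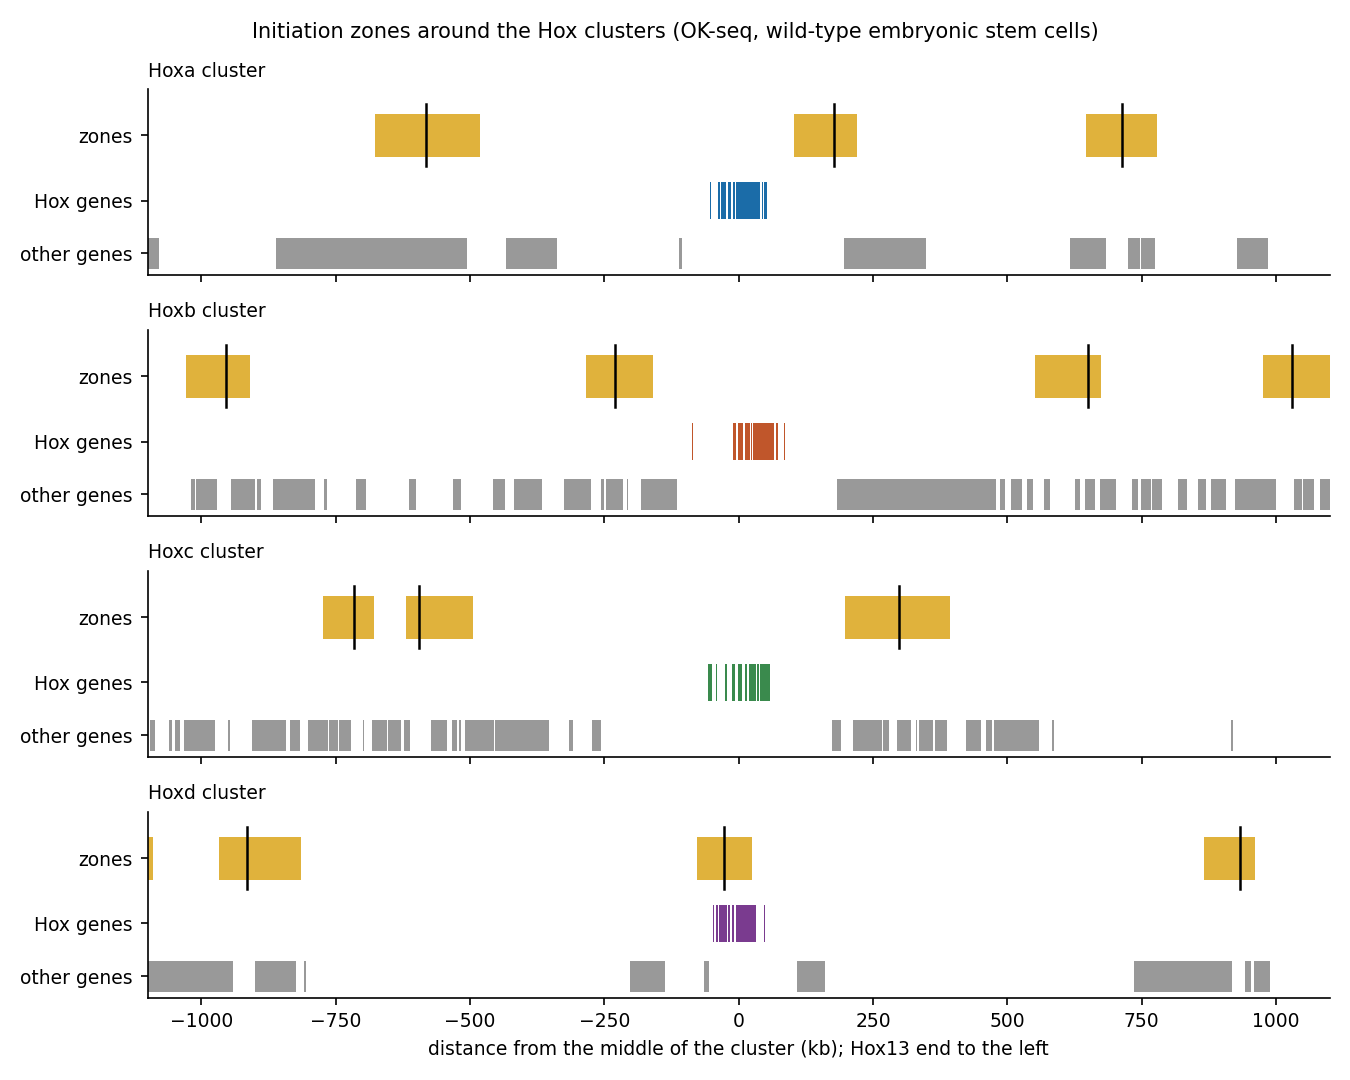
Map of each Hox cluster by distance from its middle (kb), with zones (yellow, breakpoint as black line), Hox genes (coloured) and other protein-coding genes (grey); every cluster is drawn with its high-numbered end to the left, so Hoxa is mirrored. Only the Hoxd cluster overlaps a zone, and the nearest zones of Hoxa, Hoxb and Hoxc lie 50.4, 73.3 and 140.1 kb away.

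The Hoxd cluster spans 96.9 kb on chromosome 2 (74668225 to 74765142). Its zone ran from 74639001 to 74741000 and covered 75.1% of the cluster (72776 bp). With a listed width of 101 kb, the sum of both arms, the zone was wider than 40.5% of all zones (median 112 kb). Its arms were nearly equal, 50 kb on the left and 51 kb on the right, and only 1.62% of zones had arms that differed by less. The breakpoint bin, 74689001 to 74690000, lay 75.6 kb from the outer end of Hoxd1, or 21.95% of the way into the cluster from Hoxd13. It therefore fell among the genes with high numbers, with Hoxd13, Hoxd12 and Hoxd11 on one side and Hoxd9, Hoxd8, Hoxd4, Hoxd3 and Hoxd1 on the other.

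The breakpoint lay within the annotated body of Hoxd10 (74684273 to 74695106), a gene used in limb and lumbar spinal cord patterning, and upstream of its listed transcription start. Hoxd11, which acts in forearm and kidney development, had its downstream end 2.48 kb from the breakpoint (all breakpoint distances were taken from the bin's midpoint, and differences near 1 kb are at the limit of the list). The annotated bodies of Hoxd11 and Hoxd10 overlap. The nearer end of Hoxd10 was 5.23 kb from the breakpoint and that of Hoxd9 8.26 kb. Hoxd12 followed at 11.8 kb, Hoxd8 at 15.1 kb and Hoxd13, a regulator of digit formation, at 17.9 kb. These 6 genes were thus all within 20 kb of the breakpoint itself. Hoxd3 began 22.5 kb and Hoxd4 32.5 kb from the breakpoint, and the body of Hoxd3 ran out of the zone on the right. Hoxd1 was the only Hoxd gene outside: its start lay 22.0 kb beyond the right edge and 73.5 kb from the breakpoint.

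**Figure D2:**
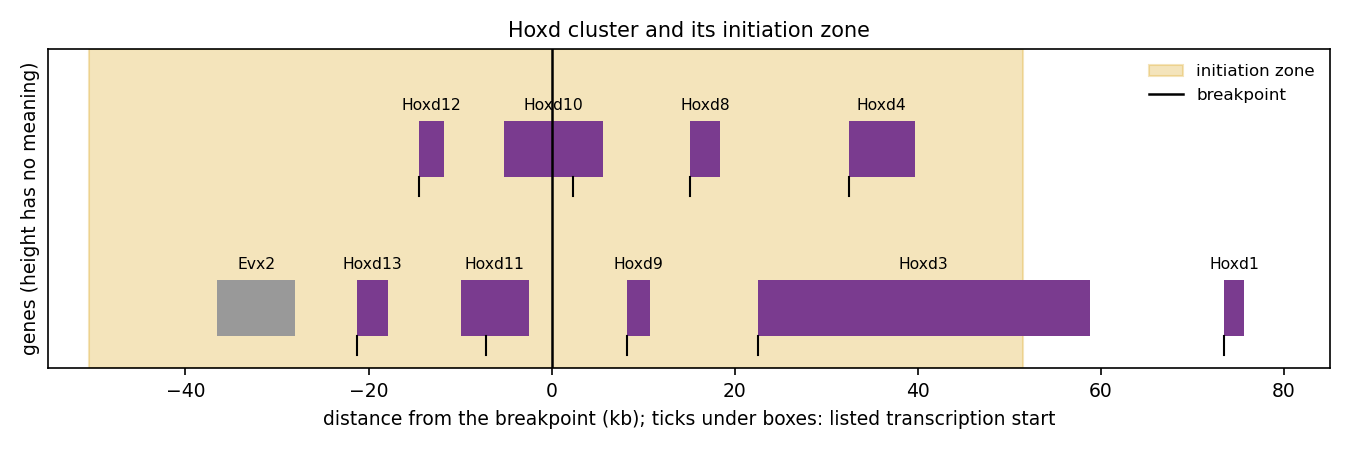
Hoxd genes as boxes by distance from the breakpoint (kb), with the zone shaded, the breakpoint as a vertical line and the listed transcription start nearest to it as a tick under each box; Evx2, a neighbour, is grey and has no tick, and the 2 rows only keep labels apart. The breakpoint crosses Hoxd10 upstream of its listed start, 8 Hoxd genes have an end inside the zone, and Hoxd1 lies outside.

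All 9 Hoxd genes had a listed start in the RefSeq promoter table, and all were on the plus strand. Measured from the start nearest to the breakpoint, Hoxd10 was the closest at 2.39 kb, followed by Hoxd11 at 7.18 kb and Hoxd9 at 8.26 kb. The promoters of these 3 genes, which surround the breakpoint, are printed below with 250 bases before and 50 after the start (RefSeq, GRCm38.p6, plus strand, 5′ to 3′), followed by that of Hoxd1, the Hoxd gene outside the zone. Capitals mark CG dinucleotides, the sites of vertebrate DNA methylation that are dense in CpG islands.
Hoxd11 (chr2:74682073-74682372, its listed start nearer to the breakpoint): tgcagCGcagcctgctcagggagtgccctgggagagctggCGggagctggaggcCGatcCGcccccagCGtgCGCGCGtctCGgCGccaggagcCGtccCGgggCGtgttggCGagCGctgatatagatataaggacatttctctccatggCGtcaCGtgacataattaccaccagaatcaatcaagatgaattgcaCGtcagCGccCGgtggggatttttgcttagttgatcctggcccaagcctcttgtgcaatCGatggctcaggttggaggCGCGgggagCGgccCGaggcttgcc
Hoxd10 (chr2:74691641-74691940): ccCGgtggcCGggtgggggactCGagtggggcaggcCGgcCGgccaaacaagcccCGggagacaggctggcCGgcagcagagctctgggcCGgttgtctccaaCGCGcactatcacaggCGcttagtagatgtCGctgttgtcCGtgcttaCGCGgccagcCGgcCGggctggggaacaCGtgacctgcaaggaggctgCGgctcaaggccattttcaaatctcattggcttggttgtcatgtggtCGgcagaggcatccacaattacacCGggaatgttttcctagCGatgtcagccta
Hoxd9 (chr2:74697513-74697812): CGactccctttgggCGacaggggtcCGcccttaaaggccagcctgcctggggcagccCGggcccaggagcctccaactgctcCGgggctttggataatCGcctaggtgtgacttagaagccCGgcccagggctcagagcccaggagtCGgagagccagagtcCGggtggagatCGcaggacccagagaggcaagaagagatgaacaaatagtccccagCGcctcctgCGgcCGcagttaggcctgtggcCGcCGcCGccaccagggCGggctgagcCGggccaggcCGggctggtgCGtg
Hoxd1 (chr2:74762730-74763029): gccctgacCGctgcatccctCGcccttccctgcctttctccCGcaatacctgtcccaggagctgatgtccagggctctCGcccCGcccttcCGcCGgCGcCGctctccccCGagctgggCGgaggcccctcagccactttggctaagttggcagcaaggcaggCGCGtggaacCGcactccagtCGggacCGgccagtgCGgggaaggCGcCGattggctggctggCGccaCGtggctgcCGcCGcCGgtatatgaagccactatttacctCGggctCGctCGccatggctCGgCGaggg
These promoters held 25 (Hoxd11), 22 (Hoxd10), 20 (Hoxd9) and 29 (Hoxd1) CG dinucleotides in 300 bases, where the median of 20085 promoters of protein-coding genes was 14. High CG content was thus found next to the breakpoint and also outside the zone. A second listed start of Hoxd11, 9.94 kb from the breakpoint, had only 4. Over all listed Hox promoters, the 9 of genes in the zone had 4 to 37 CG dinucleotides (median 20) and the 15 of genes outside zones 4 to 45 (median 14), and the ranges overlapped.

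The nearest listed starts of the other clusters lay much farther from a breakpoint. That of Hoxa2, a hindbrain regulator, was 133.3 kb away and that of Hoxc4 243.1 kb. Their promoters are printed below (Hoxa2 on the minus strand, Hoxc4 on the plus strand).
Hoxa2 (chr6:52164782-52165081): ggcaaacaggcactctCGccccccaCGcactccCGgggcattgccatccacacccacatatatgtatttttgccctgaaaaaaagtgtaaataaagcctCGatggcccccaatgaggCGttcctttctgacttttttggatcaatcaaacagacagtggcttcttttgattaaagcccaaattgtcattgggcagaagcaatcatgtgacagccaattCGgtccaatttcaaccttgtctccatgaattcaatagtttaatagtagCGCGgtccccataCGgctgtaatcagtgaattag
Hoxc4 (chr15:103034145-103034444): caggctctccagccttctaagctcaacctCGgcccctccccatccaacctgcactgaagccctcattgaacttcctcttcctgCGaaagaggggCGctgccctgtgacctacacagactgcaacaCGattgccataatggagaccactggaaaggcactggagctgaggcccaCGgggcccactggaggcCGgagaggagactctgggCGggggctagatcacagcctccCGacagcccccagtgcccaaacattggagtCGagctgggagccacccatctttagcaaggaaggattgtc
Each held 9 CG dinucleotides, but the promoter of Hoxa13, also outside zones, held 45 and that of Hoxd4, inside the zone, only 4. The motif TGATTNAT, a form of the site bound by Hox proteins together with Pbx, was searched on both strands and was present in 2 of 24 Hox promoters, those of Hoxa2 and of Hoxd11 at the start printed above, and in 2.74% of all promoters. The letters TATAAA were in 4 of 24 (12.7% of all promoters) and CCAAT in 15 of 24 (38.1%), both strands searched. A match describes the letters only.

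By listed start, the breakpoint divided the Hoxd genes into genes read toward it and genes read away from it. Forks leave a zone in both directions, and a gene can thus be read with or against the fork that moves away from the nearest breakpoint. In Hoxd the 3 genes on the Hoxd13 side, Hoxd13, Hoxd12 and Hoxd11, pointed toward the breakpoint, and the 6 from Hoxd10 to Hoxd1 pointed away. Hoxd10 was placed by its listed start alone. Its annotated body begins 5.23 kb from the breakpoint on the Hoxd13 side and crosses it. In Hoxa all 9 genes with a listed start were on the minus strand and pointed toward the breakpoint beyond the low-numbered end of the cluster. The 3 Hoxb genes with a listed start (Hoxb8, Hoxb4 and Hoxb1) pointed away from the breakpoint beyond Hoxb13, and Hoxc4 pointed toward the breakpoint on its own side. Together 9 of 22 Hox genes pointed away, against 53.7% of protein-coding genes with a listed start. Among genes with a start within 100 kb of a breakpoint, the share was 60.5% of all genes and 6 of 9 Hox genes, all of them Hoxd. The listed genes of a cluster share 1 strand, so these counts rest on 4 clusters rather than on 22 genes.

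The Hoxa cluster spans 105.5 kb on chromosome 6 (52155367 to 52260880) and lay between a zone on its low-numbered side and a distant one beyond Hoxa13. The near zone, 51987001 to 52105000, was 117 kb wide, with arms of 44 kb on the left and 73 kb toward the cluster. Its breakpoint lay 123.9 kb from the cluster. Distances to this zone grew along the cluster from 57.4 kb for Hoxa2 and 64.1 kb for Hoxa3, which act in hindbrain and neck, to 137.1 kb for Hoxa11 and 153.9 kb for Hoxa13, which act in limb and urogenital tract. The median Hoxa gene was 99.9 kb away. On the Hoxa13 side the nearest zone, 52690001 to 52885000, was 429.1 kb away. It was 194 kb wide, wider than 98.6% of zones, and its arm toward the cluster had the length of 100 kb at which arms in the list stop, so its edge may lie nearer to Hoxa13 than listed. Of the listed zones, 272 had an arm at this limit.

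The Hoxb cluster spans 173.9 kb on chromosome 11 (96194316 to 96368254), and its nearest zone lay beyond Hoxb13. This zone, 95998001 to 96121000, was 122 kb wide, with its breakpoint 142.8 kb from Hoxb13. Hoxb13, a prostate and tail regulator that stands 74.7 kb apart from Hoxb9, was 73.3 kb from the zone. Hoxb9 followed at 150.3 kb, Hoxb5 at 182.5 kb and Hoxb1, which specifies a hindbrain segment, at 244.7 kb. The order of nearness by gene number was thus opposite to that of Hoxa, apart from Hoxb3 (186.1 kb), whose long annotated body reaches past Hoxb4 (197.3 kb). The median Hoxb gene was 177.2 kb away. On the Hoxb1 side the nearest zone, 96833001 to 96955000, was 464.7 kb away, and its arms were very unequal, 98 kb toward the cluster and 23 kb away from it.

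The Hoxc cluster spans 115.7 kb on chromosome 15 (102921131 to 103036856) and lay farther from zones than the other 3. It has no genes with the numbers 1 to 3, and its low-numbered end is Hoxc4. The nearest zone, 103177001 to 103372000, was 140.1 kb from Hoxc4, 159.6 kb from Hoxc5 and 248.2 kb from Hoxc13, the Hox gene farthest from any zone. The median Hoxc gene was 192.6 kb away. This zone was 194 kb wide and its arm toward the cluster had the limiting length of 100 kb, so the distance of 140.1 kb may be too large. Its breakpoint lay 240.6 kb from Hoxc4. It was the last of 119 zones on the chromosome. On the Hoxc13 side the nearest zone, 102360001 to 102484000, was 437.1 kb away, and its arm toward the cluster was 99 kb long.

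**Figure D3:**
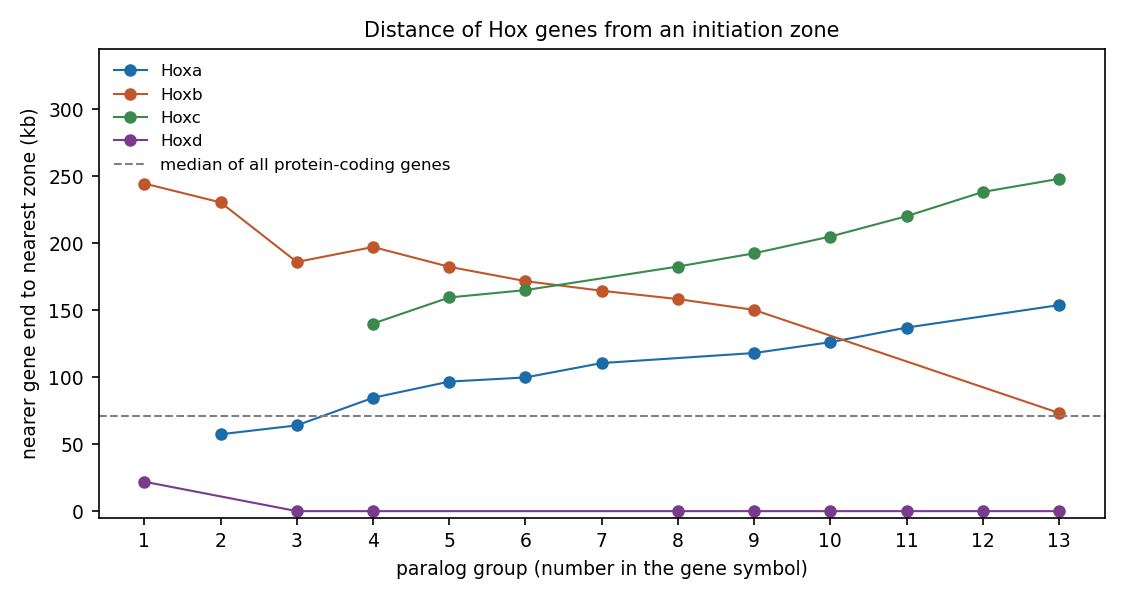
Distance from the nearer end of 38 Hox genes to the nearest zone (kb) by paralog number, with lines joining genes of a cluster and a dashed line at the median of all protein-coding genes (71.2 kb). Distance rises with number in Hoxa and Hoxc, falls in Hoxb apart from Hoxb3, and is 0 for 8 of the 9 Hoxd genes.

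Paralogs did not share a distance from zones. In group 13, Hoxd13 was inside a zone, Hoxb13 73.3 kb, Hoxa13 153.9 kb and Hoxc13 248.2 kb away. In group 4, Hoxd4 was inside, and Hoxa4 (84.7 kb), Hoxc4 (140.1 kb) and Hoxb4 (197.3 kb) followed. In group 9 the order was Hoxd9, Hoxa9 (118.1 kb), Hoxb9 (150.3 kb) and Hoxc9 (192.6 kb). Hoxd was nearest and Hoxa nearer than Hoxc in all 3 of these groups, which have a gene in every cluster, while the place of Hoxb changed with the number. In group 1, Hoxd1 was 22.0 kb and Hoxb1 244.7 kb from a zone. By number, an end inside a zone was found in 1 of 8 genes of groups 1 to 3, in 2 of 15 of groups 4 to 8 and in 5 of 16 of groups 9 to 13, against 32.4% of all protein-coding genes. All of these are Hoxd genes, so the shares follow the single Hoxd zone.

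Hoxa, Hoxb and Hoxc each lay within 1 interval between neighbouring breakpoints, while Hoxd was divided between 2. The median over all 2825 intervals was 592 kb. The interval around Hoxa measured 759 kb, that around Hoxb 880 kb and that around Hoxc 893 kb. The Hoxd breakpoint ended 2 intervals, of 888 kb on the Hoxd13 side and 961 kb on the Hoxd1 side. All 5 fell between the median and the upper quartile of 1120 kb, longer than 59.5% to 68.7% of intervals. None of them was thus extreme in length. Within its interval the middle of Hoxa lay 23.3% of the way from the breakpoint on its low-numbered side, the middle of Hoxb 26.1% of the way from the Hoxb13-side breakpoint and the middle of Hoxc 66.6% of the way from the Hoxc13-side breakpoint. The number of breakpoints within 1 Mb of the cluster was 3 for Hoxa, Hoxc and Hoxd and 4 for Hoxb, against a median of 3 (quartiles 2 and 4) over all protein-coding genes.

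**Figure D4:**
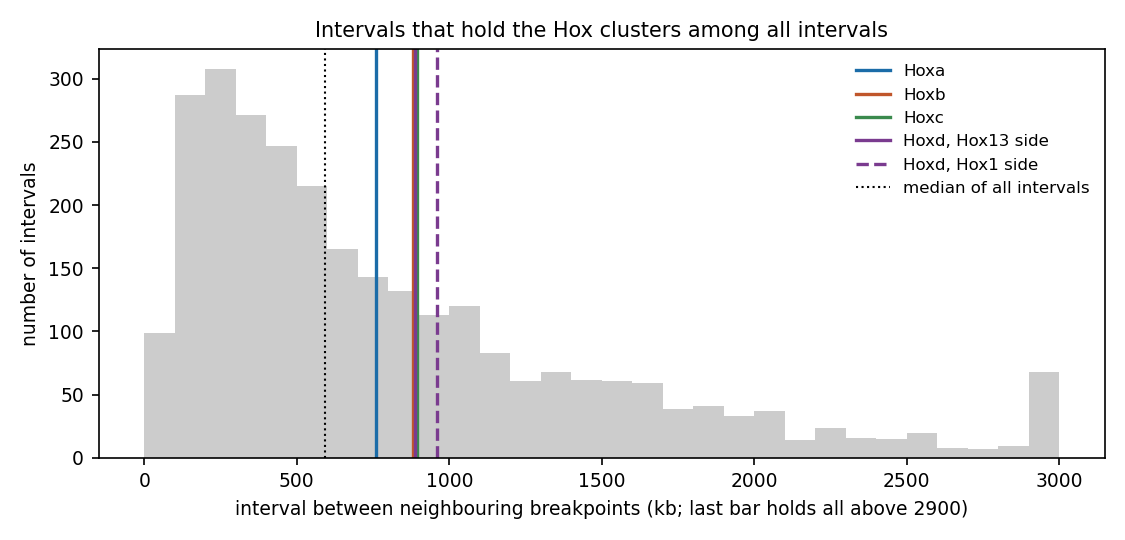
Histogram of the 2825 intervals between neighbouring breakpoints (kb, bars of 100 kb, the last holding all longer intervals), with coloured lines at the 5 intervals beside the Hox clusters and a dotted line at the median of 592 kb. The Hox intervals measure 759 to 961 kb and lie close together above the median.

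The intervals differed more in what else they held. By gene middle, the Hoxa interval held 14 protein-coding genes, 11 of them Hox genes, and the Hoxb interval 20, of which 10 were Hox genes. The Hoxc interval held 23 with 9 Hox genes. The Hoxd intervals held 7 and 8 genes, with 3 and 6 Hox genes, in the gene-poor surroundings known for their limb enhancers. Hoxd10 was counted on the Hoxd1 side. Its middle lies within the breakpoint bin of 1 kb, however, so the list does not resolve its side. The median interval held 5 genes (upper quartile 9). By gene number the Hoxa, Hoxb and Hoxc intervals exceeded 87.2%, 93.2% and 94.9% of intervals, and the Hoxd intervals 63.7% and 69.8%. These counts include the Hox genes themselves. Next to Hoxd the closest genes were Evx2, a homeobox gene 6.71 kb from Hoxd13 and inside the same zone, and Lnpk, 88.8 kb away, followed only at 755.8 kb by Atp5g3. On the other side Mtx2, a mitochondrial import gene, lay 60.7 kb from Hoxd1 and the next gene, Gm50595, 686.8 kb away. Evx1, the counterpart of Evx2 beside Hoxa, was 52.6 kb from Hoxa13 and 208.5 kb from a zone. Beyond it on this side were Hibadh (285.4 kb from Hoxa13) and Tax1bp1 (452.8 kb), and Skap2 was the nearest gene on the low-numbered side (142.8 kb). Hoxb was bordered by Ttll6, a tubulin-modifying enzyme gene 28.1 kb from Hoxb13, with Calcoco2 and Atp5g1 behind it, and by Skap1, 96.3 kb from Hoxb1, with Snx11 and Cbx1 behind it. Hoxc was bordered by Calcoco1 (199.0 kb from Hoxc13), Atp5g2 and Atf7, and by Smug1, a DNA repair glycosylase gene 116.4 kb from Hoxc4, Cbx5 and Hnrnpa1.

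The zones beside the clusters held between 1 and 7 protein-coding genes with an end inside. Beside Hoxb, the breakpoint of the near zone lay in Ube2z, a ubiquitin-conjugating enzyme gene, with its end 4.07 kb away, and Snf8, of the ESCRT sorting machinery, and Gip, a gut hormone gene, were next nearest on one side. The far Hoxb zone had its breakpoint in Prr15l, and Cdk5rap3 had an end 14.97 kb from it. Beside Hoxc, the breakpoint lay in Copz1, a coatomer subunit gene (end at 4.61 kb), with Nfe2 and Gpr84 next nearest. The breakpoint of the far Hoxc zone lay between Sp7 and Sp1, transcription factor genes with ends 17.5 and 21.8 kb from it. Beside Hoxa, the near zone held an end of Skap2 alone (18.95 kb), and the far zone had its breakpoint in Jazf1, with Tax1bp1 beside it. Beside Hoxd, the zone on the Hoxd1 side held Hnrnpa3 (8.60 kb), Gm50595 and Nfe2l2, the regulator of the oxidative stress response, and the zone on the Hoxd13 side Atf2 (15.0 kb) and Chn1. Further zones within 1 Mb had Cbx3 (11.8 kb) nearest beside Hoxa, Fam117a (9.52 kb) and Mrpl45 (3.42 kb) beside Hoxb, and Rarg, a retinoic acid receptor gene (5.98 kb), beside Hoxc. Within 1 Mb of the clusters, 56 of 105 protein-coding genes other than Hox genes (53.3%) had an end within 20 kb of a zone, against 38.5% of all protein-coding genes. The share was 7 of 10 beside Hoxa, 21 of 41 beside Hoxb, 21 of 45 beside Hoxc and 7 of 9 beside Hoxd. In Hoxa, Hoxb and Hoxc no Hox gene was that near, while many of their neighbours were.

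Since whole chromosome segments were duplicated with the Hox genes, several gene families have members beside more than 1 cluster. For 10 families of a list of such genes, 27 members lay within 1 Mb of a Hox cluster. Of these, 20 were within 20 kb of a zone (18 inside), against 38.5% of all protein-coding genes (32.4% inside). Among the 105 non-Hox genes within 1 Mb of the clusters, which include these 27, the share within 20 kb was 53.3%. The RNA-binding protein genes Hnrnpa2b1 beside Hoxa, Hnrnpa1 beside Hoxc and Hnrnpa3 beside Hoxd all had an end inside a zone. So had Nfe2l3, Nfe2 and Nfe2l2, of a family of basic leucine zipper factors, beside Hoxa, Hoxc and Hoxd, and Nfe2l1 beside Hoxb was 3.03 kb from one. Of the heterochromatin protein 1 genes, Cbx3 and Cbx5 were inside a zone and Cbx1 24.02 kb away. Both coatomer genes, Copz1 and Copz2, were inside. Of the Sp transcription factor genes, Sp1 and Sp7 beside Hoxc and Sp2 beside Hoxb were inside a zone and Sp6, also beside Hoxb, 58.6 kb away. The remaining 5 families each had members inside and outside zones. Evx2, Skap2, Snx10, Calcoco2 and Atp5g1 lay inside a zone, whereas Evx1, Skap1 (73.4 kb), Snx11 (55.3 kb), Calcoco1 (222.8 kb) and Atp5g2 (178.9 kb) did not, and Atp5g3 was 6.45 kb from a zone. The whole list, with members elsewhere in the genome included, had 33 of 46 genes within 20 kb of a zone (71.7%, against 38.5% of all protein-coding genes), from Osbpl6 and Copz1 (ends 3.00 and 4.61 kb from a breakpoint) to Sp5, 324.3 kb from a zone. Neighbouring genes often shared a zone, so these counts stand for fewer zones than genes.

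**Figure D5:**
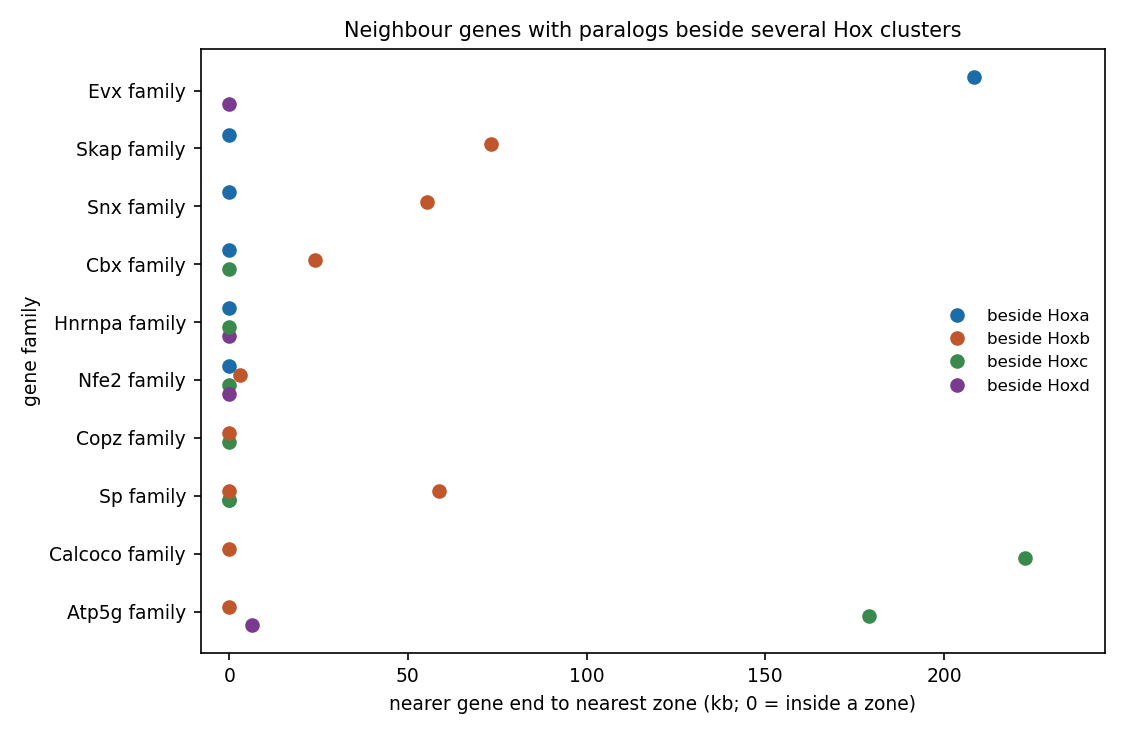
Distance from the nearer gene end to the nearest zone (kb, 0 inside) for the 27 genes of 10 families with members within 1 Mb of at least 2 Hox clusters, coloured by cluster; Sp1 and Sp7 share a point. All Hnrnpa and Copz genes are inside zones, and Evx1, Calcoco1 and Atp5g2 are the farthest, at 208.5, 222.8 and 178.9 kb.

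RefSeq lists 11 long non-coding RNA genes inside Hoxa, 6 inside Hoxb and 3 inside Hoxc, and since no zone overlaps these clusters, none of them could lie in one. Hotairm1 in Hoxa was 53.5 kb and Hotair, between Hoxc12 and Hoxc11, 229.1 kb from a zone. In Hoxd, 2 of 4 were inside (Hoxd3os1 and Gm38462), a count that follows the single zone covering 75.1% of the cluster. Haglr was 7.42 kb and Gm14424 11.7 kb beyond the edge of this zone. The share of all long non-coding RNA genes inside a zone was not computed. The clusters also hold the genes of the miR-10 and miR-196 families, which are known to target Hox transcripts. The mature forms of these families below, from RefSeq (GRCm38.p6), show how copies in different clusters share a seed (bases 2 to 8, in capitals). Printed last is miR-615-3p, which belongs to neither family, lies in Hoxc alone and shares its seed with none of the others.
miR-10a-5p, Hoxb cluster: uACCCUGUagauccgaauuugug
miR-10b-5p, Hoxd cluster: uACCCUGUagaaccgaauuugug
miR-196a-5p, Hoxb and Hoxc clusters: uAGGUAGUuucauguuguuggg
miR-196b-5p, Hoxa cluster: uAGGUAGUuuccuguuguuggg
miR-615-3p, Hoxc cluster: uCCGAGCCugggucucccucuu
Mir10b lay inside the Hoxd zone, 36.6 kb from its breakpoint, while Mir10a, with the same seed, was 196.2 kb from a zone. The 3 genes that share the miR-196 seed were all outside, with Mir196b at 125.1 kb, Mir196a-1 at 144.2 kb and Mir196a-2 at 203.6 kb. Mir615 was 162.0 kb from a zone.

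Genes of the proteins that act with or on Hox genes lay in many parts of the genome and are given as lists for comparison. Of 9 genes of the TALE homeodomain cofactors, which bind DNA together with Hox proteins, 7 were within 20 kb of a zone. Meis2 had an end 5.96 kb from a breakpoint, while Meis1 was 793.4 kb from a zone (median of the list 0 kb). Of 28 Polycomb genes, whose products keep Hox genes silent, 14 were near. Phc3 (11.02 kb from a breakpoint) and Suz12 (14.6 kb) were nearest and Rybp, 1657 kb from a zone, was farthest (median 21.3 kb). Of 10 Trithorax and insulator genes located (Kdm6a was not used here), 6 were near, with Dpy30 at 6.56 kb and Kmt2a, a methyltransferase that keeps Hox genes active, at 13.85 kb from a breakpoint, and Men1 605.1 kb from a zone (median 8.71 kb). Of 15 genes of retinoic acid signalling, which induces Hox genes, and of the ParaHox group, 4 were near, among them Gsx2 (0.900 kb from a breakpoint) and Cdx1 (3.64 kb). Rara, a retinoic acid receptor gene, was farthest at 700.8 kb (median 140.4 kb). The corresponding values over all protein-coding genes were 38.5% and a median of 71.2 kb, and lists this small do not place a share closely.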

How the data were processed

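The measurement was a deposited list of OK-seq initiation zones of 1 wild-type library. Per the file headers, the authors' values are other quantities than counts: distances in bp from a breakpoint bin of 1 kb to a minimum on its left and a maximum on its right. Per the submitters' processing notes the build was mm10, and SAMtools, Picard 2.8.2, Bowtie, Trim Galore 0.4.2, BWA 0.7.13 and bcl2fastq are named without roles. The labels give the OK-seq sample an extraction text that describes nucleosome pull-down; fragment preparation and zone calling: not given in the sources used here. No arm exceeded 100 kb. Depth is unknown.

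Genes came from the RefSeq table of GRCm38.p6, without 333 genes on scaffolds. A zone ran from the outer base of its left bin to that of its right bin. Zone widths are the listed sizes, the sum of both arms, and leave out 1 bin of 1 kb from the span of the edges. A gene was near a zone if its start or end lay within 20 kb. Strand and starts came from the RefSeq promoter table, which matched 22 of 39 Hox genes and 16457 protein-coding genes; of several starts, the one nearest to a breakpoint was used. Genes with no listed start included Hoxa4, Hoxb2, Hoxb3, Hoxb5, Hoxb6, Hoxb7, Hoxb9, Hoxb13, Hoxc5, Hoxc6, Hoxc8, Hoxc9, Hoxc10, Hoxc11, Hoxc12 and Hoxc13. Distances were computed with Python 3.11.15 and pandas 2.3.3 and tested on simulated data. Named besides Hox genes were the 3 genes next to a cluster on each side, up to 3 genes nearest to the breakpoint of a flanking zone, non-coding genes inside clusters and, per list, the 2 genes nearest to a breakpoint and the 1 farthest from a zone; genes of families beside several clusters were named after their values were seen. Some genes that these rules select are not reported here. The members and lists were chosen with earlier results of these data known. Alternatives were other limits, gene midpoints, listed starts, wide zones, zones without a limiting arm, merged zones, zone midpoints, edge gaps and cluster ends at Evx genes.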

Additional observations from a re-analysis of the deposited data

How the results depend on the processing

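With 1 library, no replicate could be left out. No paired analysis was possible because a single library was analysed and no result came from a test. The number of Hox genes near a zone stayed at 8 or 9 under the limits of 0, 5 and 50 kb, gene midpoints, merged zones and zones with no limiting arm. By listed start it was 8 of the 22 genes that have one, a share of 36.4% against 33.9% of all genes, where the main rule gave 20.5% against 38.5%. The Hox genes without a listed start are all in Hoxa, Hoxb and Hoxc, so the higher share follows from which genes are listed. The number near a zone was 0 when zones narrower than the median were dropped (23.4% of all protein-coding genes), since the Hoxd zone is narrower. Hoxd was then 766.2 kb from a zone, and the nearest remaining breakpoint, beyond Hoxd13, lay 963.6 kb from the Hoxd1 end. The arm of that zone toward the cluster had the limiting length of 100 kb. The distance of 766.2 kb and the edge gap of 737 kb given below may thus be too large. The 2 Hoxd intervals could not be formed. Without zones that have a limiting arm, Hoxc was 437.1 kb from a zone. Measured to the breakpoint, the distances were 123.9 kb (Hoxa), 142.8 kb (Hoxb) and 240.6 kb (Hoxc). The point midway between the edges lay at -109.4 kb (Hoxa), 308.8 kb (Hoxb) and -237.6 kb (Hoxc) from the low-numbered end, against -123.9, 316.8 and -240.6 kb for the breakpoint. Edge gaps in place of breakpoint intervals measured 585 kb (Hoxa), 712 kb (Hoxb), 693 kb (Hoxc), 737 kb (Hoxd, Hoxd13 side) and 841 kb (Hoxd1 side). The setting with merged zones gave 741.5, 834.5, 852.5, 864 and 939.5 kb in the same order. It measured from midway between the edges in place of the breakpoint. None of the zones that bound these intervals was merged, so the shifts come from the midpoints. Moving cluster ends to Evx1 or Evx2 could change none of these distances, or positions in kb from the low-numbered end. Both genes lie on the high-numbered side, away from the ends measured. The breakpoint's place of 21.95% from Hoxd13 and the covered share of 75.1% do depend on the moved Hoxd end. They were not recomputed with it. The number of Hox genes pointing away from a breakpoint was 9 of 22, and 6 of 9 within 100 kb. Unknown depth and absent replicates limit all distances.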
